A study of Homo sapiens with 4 samples.

Results

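The interleukin-1 family genes were examined for open chromatin in human BJ fibroblasts, an established cell line, with and without the transcription factor ΔNp63α. Its members here were 10 genes. IL1A, IL1B, IL37, IL36G, IL36A, IL36B, IL36RN, IL1F10 and IL1RN lie in a cluster on chromosome 2, and IL33 lies on chromosome 9. A peak was assigned to a member when its summit lay in the gene body or within 50 kb of a GENCODE transcription start site (TSS) of that gene. By this rule 33 of the 101142 peaks of the CTR list and 46 of the 109486 peaks of the p63 list were assigned, which merged into 54 distinct regions, 48 on chromosome 2 and 6 near IL33. Windows of neighbouring genes overlap, so that 1 region could be assigned to up to 4 members.

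Chromatin accessibility had been measured by ATAC-seq, in which a transposase inserts sequencing adapters into accessible DNA. All cells carried the doxycycline-controlled transactivator rtTA and a retroviral construct, and expression was induced for 72 h. The CTR group expressed KLF4 alone, the p63 group expressed ΔNp63α together with KLF4, so that KLF4 was common to both groups. Each group had 2 replicates, which were separate inductions of the same polyclonal lines, and the peaks of both were deposited as a single list per group. No spread between replicates is therefore available, no test between the groups was possible, and all differences below are differences between 2 peak lists.

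Interleukin-1 family cytokines are early alarm signals of barrier tissues. IL-1α (IL1A) and IL-33 are held ready in epithelial cells and are released upon damage, while IL-1β (IL1B) is made as an inactive precursor that the protease caspase-1 cleaves. The IL-36 cytokines (IL36A, IL36B and IL36G) drive inflammation of the skin, and keratinocytes are among their main producers. The family also holds its own brakes: IL1RN encodes the antagonist of the interleukin-1 receptor, IL36RN encodes that of the IL-36 receptor, and IL-37 and IL-38 (the product of IL1F10) dampen inflammation. p63 is the master regulator of stratified epithelia and recognises a 20 bp site made of a pair of similar parts.

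The sequences of some of the regions that differed between the lists, and of all those with a p63 site, are shown first. All are taken from the plus strand of the hg38 reference (GRCh38), and none contains annotated exon sequence. The longer ones span 100 bp to either side of a summit and the shorter ones a motif with 20 bp to either side. Between IL1A and IL1B, the fold enrichments of a neighbouring pair of regions differed in opposite directions. The first, stronger in the CTR list, is chr2:112812049-112812249, and its capitals mark a pair of overlapping NF-kB motifs. The counting intervals of its reads, given below, overlapped between the lists. The second, stronger in the p63 list, is chr2:112814382-112814582, with the p63 site in capitals, and the third line shows its NF-kB motif (chr2:112814501-112814550).
IL1A-IL1B region stronger in CTR: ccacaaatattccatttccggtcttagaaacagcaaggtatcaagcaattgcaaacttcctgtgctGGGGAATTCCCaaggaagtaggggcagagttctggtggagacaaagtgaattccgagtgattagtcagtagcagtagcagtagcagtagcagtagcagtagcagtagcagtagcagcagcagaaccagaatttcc
IL1A-IL1B region stronger in p63: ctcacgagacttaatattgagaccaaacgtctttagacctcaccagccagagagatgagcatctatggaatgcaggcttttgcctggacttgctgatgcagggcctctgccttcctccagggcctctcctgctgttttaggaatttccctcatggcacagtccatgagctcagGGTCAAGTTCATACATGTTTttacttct
IL1A-IL1B region stronger in p63, NF-kB motif: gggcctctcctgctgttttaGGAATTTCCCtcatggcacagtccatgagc

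Further p63 sites, in capitals, lay in 3 regions that had no peak in the CTR list, namely downstream of IL1F10 (chr2:113085722-113085781), in an intron of IL1RN (chr2:113114020-113114079) and in an intron of PSD4, a gene next to IL1RN (chr2:113164753-113164812). The peaks in IL1RN and PSD4 were weak and stayed below the threshold for open regions given below. How often weak peaks of the p63 list alone hold a p63 site was not counted.
IL1F10 downstream, p63 site: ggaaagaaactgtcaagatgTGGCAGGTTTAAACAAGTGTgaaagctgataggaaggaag
IL1RN intron, p63 site: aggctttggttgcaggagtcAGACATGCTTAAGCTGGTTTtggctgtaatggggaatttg
PSD4 intron, p63 site: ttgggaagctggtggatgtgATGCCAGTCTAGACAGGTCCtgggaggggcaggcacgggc

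In other open regions found in the p63 list alone, none of the motifs searched was present near the summit. The one in an intron of IL33 (chr9:6230436-6230636) is shown for comparison. AP-1 motifs, in capitals, were present in the region shared by both lists downstream of IL36A (chr2:113013062-113013108) and in the shared region of IL33 (chr9:6243847-6244047).
IL33 intron, p63 list alone: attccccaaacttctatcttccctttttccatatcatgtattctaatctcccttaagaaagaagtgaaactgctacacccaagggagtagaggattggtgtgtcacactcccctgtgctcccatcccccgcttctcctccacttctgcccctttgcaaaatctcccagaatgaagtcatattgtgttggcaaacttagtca
IL36A downstream, AP-1 motif: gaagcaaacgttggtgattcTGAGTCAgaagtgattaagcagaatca
IL33 intron, shared: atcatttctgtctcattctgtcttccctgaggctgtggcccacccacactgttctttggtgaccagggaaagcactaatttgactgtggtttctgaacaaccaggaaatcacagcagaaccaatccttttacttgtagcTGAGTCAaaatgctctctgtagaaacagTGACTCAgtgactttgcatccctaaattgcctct

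For each peak the peak caller gave a fold enrichment and a −log10 q. The fold enrichment is the number of reads at the summit relative to the local background, with 1 added to each. Peaks whose −log10 q reached 10, which is the cutoff of the study, are called open regions. The number of reads at the summit (pileup) and the local background were solved from these values, and the brackets behind a pileup give its 95% Poisson interval, which covers counting error only. Genome-wide, the lists held 56680 and 62343 open regions, the commonest background coverage was 1.18 reads in CTR and 1.13 reads in p63, and the median pileup of an open region was 34 reads in both. Open chromatin within 1 kb of a TSS was found at 10 of 12 fibroblast markers in both lists. It was found at 1 of 10 keratinocyte markers in both lists (CDH1, with KRT5 and KRT14 among those without), at 5 of 9 leukocyte markers in CTR and 3 of 9 in p63, at 1 of 6 endothelial markers and at 2 of 5 melanocyte markers in both lists. The part of other cell types in the results was not tested.

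Open regions near the interleukin-1 family genes were more often shared than particular to a list. The CTR list held 21 of them, of which 19 overlapped an open region of the p63 list and 2 did not (CTR-only, 9.52%, 95% Wilson interval 2.65 to 28.9%). The same figure over all open regions of the CTR list was 16.5%. Both CTR-only regions were present in the p63 list below the threshold, and none was absent from it, which was the case for 3.29% of all CTR open regions. The p63 list held 25 open regions, of which 19 were shared and 6 were p63-only (24%, 11.5 to 43.4%), against 23.9% over the whole p63 list. Of these 6 regions, 5 had no CTR peak at any threshold (20%, 8.86 to 39.1%), compared with 12% of all p63 open regions. At this threshold the shares of list-only regions near these genes were thus close to or within counting error of those of the whole lists. With a −log10 q of at least 20 in both lists, 10 of 16 p63 regions were p63-only (62.5%), compared with 24.6% of all p63 regions at that threshold. Most of these 10 were shared at the threshold of 10, with a CTR −log10 q from 10.3 to 19.9. The CTR-only share was also higher at the stricter threshold, with 33.3% against 15.4% of all CTR regions.

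Of the 27 regions open in at least one list, 8 lay within 3 kb of an annotated TSS of any gene, 4 lay elsewhere inside a gene and 15 were intergenic. The other 27 regions stayed below the threshold wherever they were called. They were small, with 7 to 23 reads at the summit in the CTR list and 6 to 30 in the p63 list. The p63 list alone held 16 of them, the CTR list alone 8, and both lists 3. The matching shares over all peaks below the threshold were not counted. Counting peaks at any −log10 q, 45.7% of the p63 peaks near these genes overlapped no CTR peak, against 27.1% of all p63 peaks. For CTR peaks without a p63 peak these shares were 24.2% and 21.4%. The threshold cut narrowly through some regions. Just inside lay the p63 peak 4.9 kb from the IL36A start with a −log10 q of 10.2 and the CTR peak 19.9 kb upstream of IL1A with 10.3, and just outside lay a p63 peak in IL1RN with 8.60 and a CTR peak upstream of IL37 with 7.38.

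**Figure D1:**
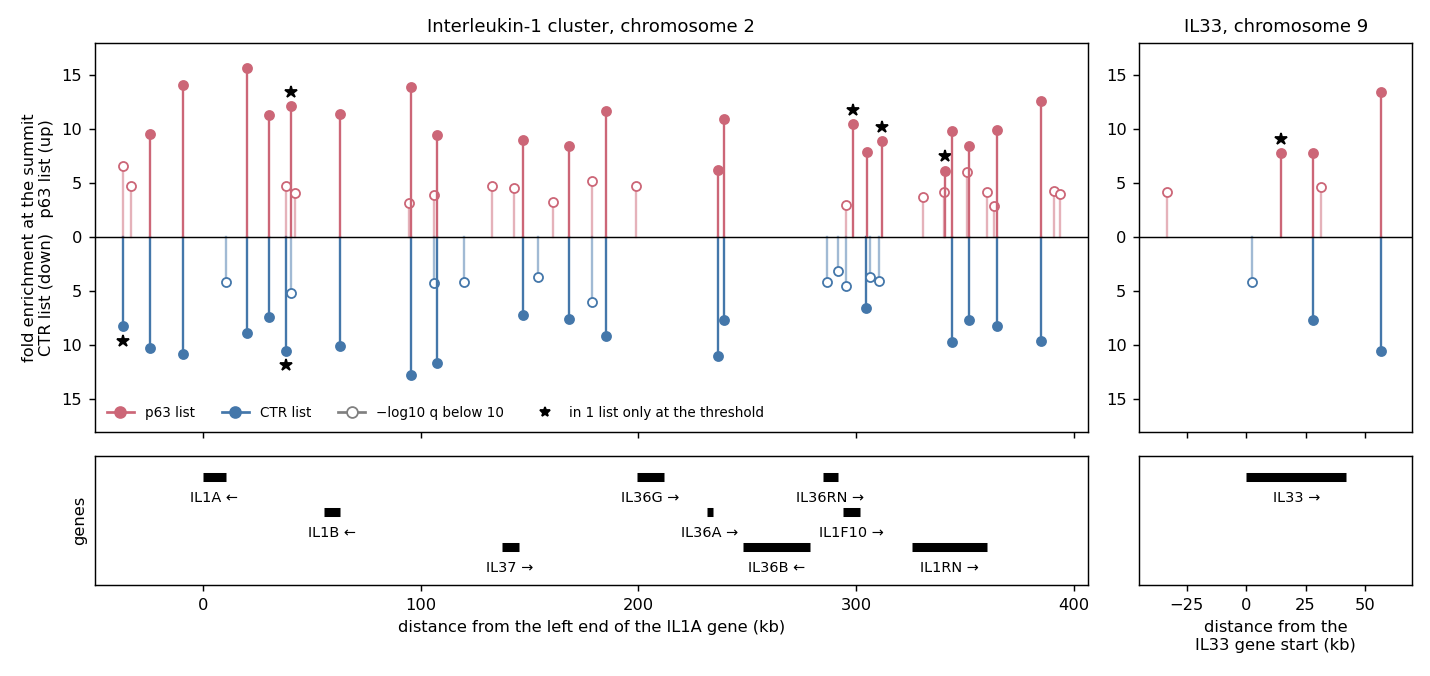
Fold enrichment of the peaks of both lists, all but 1 p63-only region, across the cluster (left) and around IL33 (right), p63 list upwards and CTR list downwards, against the distance in kb from the lower end of the IL1A or IL33 gene; filled points are at the threshold, open points below it, and stars mark regions open in 1 list only. Black bars below are the member genes with their direction of transcription. Of the p63-only regions with no CTR peak, those shown sat near IL1F10, IL1RN and IL33. The fold enrichments of the pair between IL1A and IL1B differed in opposite directions, with overlapping counting intervals for the CTR-only region.

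The agonist IL1A (ENSG00000115008.6, chr2:112773925-112784493, minus strand) had no open region within 3 kb of its TSS in either list. Only the CTR list held a weak peak there, 103 bp from the start, with 8 reads (3.45 to 15.8), a 4.13-fold enrichment and a −log10 q of 3.39. Open chromatin was found further upstream. The region 9.9 kb upstream (chr2:112793652-112794518) had a fold enrichment of 8.90 in CTR and 15.6 in p63. It had 24 reads (15.4 to 35.7) in CTR and 49 reads (36.3 to 64.8) in p63, and it was the only 1 of the 19 shared regions whose counting intervals did not overlap. Its log2 ratio of 0.81 exceeded that of 99.3% of all shared regions. The next region, 19.9 kb upstream (chr2:112804280-112804484), had 15 reads in CTR and 23 reads in p63, with fold enrichments of 7.34 and 11.3. Of the regions assigned to IL1A, the strongest in the p63 list was the promoter of the neighbouring gene CKAP2L (chr2:112763996-112765052), with 85 reads (67.9 to 105) in CTR and 111 reads (91.3 to 134) in p63. Its fold enrichment was 10.8 in CTR and 14.1 in p63.

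In the interval between IL1A and IL1B lay the only p63-only region that the CTR list also held as a weak peak. It was found at chr2:112814308-112814609, 19.1 kb downstream of the nearest of the alternative IL1B TSSs and past the end of that gene. The p63 peak had 49 reads (36.3 to 64.8), a 12.1-fold enrichment and a −log10 q of 38.1, while the CTR peak had 15 reads (8.40 to 24.7), a 5.15-fold enrichment and a −log10 q of 6.83. The counting intervals did not overlap. This region held the p63 site with 2 mismatches shown above, at chr2:112814555-112814574 and 82 bp from the summit, together with an NF-kB motif.

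Its neighbour at a gap of 1968 bp behaved in the opposite manner. The CTR-only region at chr2:112811918-112812339, 21.4 kb downstream of the same alternative TSS, had 30 reads (20.2 to 42.8) and a fold enrichment of 10.5 in CTR, with a −log10 q of 23. In the p63 list it had 18 reads (10.7 to 28.4), a 4.75-fold enrichment and a −log10 q of 7.11, and its counting intervals overlapped. The local background was 1.95 reads in CTR and 3.0 reads in p63, and the part of this background in the difference of fold enrichment was not tested. The other CTR-only region (chr2:112737064-112737331), at 47.3 kb from the IL1A start and within a UTR exon of CKAP2L, had 17 reads (9.90 to 27.2) in CTR and 13 reads (6.92 to 22.2) in p63, with fold enrichments of 8.26 and 6.58 and −log10 q of 12.6 and 8.46. For this region the threshold separated values that differed by less than counting error.

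The promoter of IL1B (ENSG00000125538.12, chr2:112829751-112836816, minus strand), which encodes the precursor cleaved by caspase-1, was open in both lists. The region (chr2:112836585-112837095) had its summit 98 bp upstream of the first TSS, with 26 reads (17.0 to 38.1) in CTR and 30 reads (20.2 to 42.8) in p63. Its fold enrichments were 10.1 and 11.4, and its −log10 q 20.1 and 24.6, so that both lists gave nearly the same picture. By −log10 q in the p63 list, the strongest shared regions of the cluster outside promoters lay between IL1B and IL37. The one 32.9 kb upstream of IL1B (chr2:112869125-112869819) had 55 reads in both lists, with fold enrichments of 12.8 in CTR and 13.9 in p63.

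IL37 (ENSG00000125571.10, chr2:112911165-112918882, plus strand), whose product dampens inflammation, had no open region within 3 kb of a TSS. A weak peak of the p63 list lay in an intron 1.8 kb from a start, with 14 reads (7.65 to 23.5), a 4.54-fold enrichment and a −log10 q of 5.54. The shared region 29.7 kb upstream of IL37 (chr2:112881290-112881612) had 65 reads (50.2 to 82.8) in CTR and 74 reads (58.1 to 92.9) in p63. Its fold enrichment nonetheless was higher in CTR (11.7) than in p63 (9.44), with a local background of 4.66 reads in CTR and 6.95 reads in p63.

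Among the IL-36 agonists no promoter was open. IL36G (ENSG00000136688.11, chr2:112973203-112985658, plus strand) had a weak peak in the p63 list alone, 296 bp upstream of a start, with 9 reads (4.12 to 17.1), a 4.70-fold enrichment and a −log10 q of 4.46. IL36A (ENSG00000136694.9, chr2:113005459-113008044, plus strand) and IL36B (ENSG00000136696.11, chr2:113022089-113052867, minus strand) had no peak at all within 3 kb of a TSS. A pair of shared regions downstream of IL36A, with a gap of 2166 bp, differed in opposite directions. At 4.9 kb from the IL36A start (chr2:113010185-113010426), 34 reads (23.5 to 47.5) were found in CTR and 19 reads (11.4 to 29.7) in p63, with fold enrichments of 11 and 6.26. Its log2 ratio of −0.81 was lower than that of all but 0.259% of shared regions. At 7.6 kb (chr2:113012709-113013194), 24 reads (15.4 to 35.7) were found in CTR and 33 reads (22.7 to 46.3) in p63, with fold enrichments of 7.68 and 11. The local background of this pair was 2.19 to 2.25 reads in CTR and 2.10 to 2.20 reads in p63, and the counting intervals of the lists overlapped for each of them. This second region was also the shared region with the highest −log10 q (25.7 in the p63 list) for IL36G, IL36B and IL36RN.

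**Figure D2:**
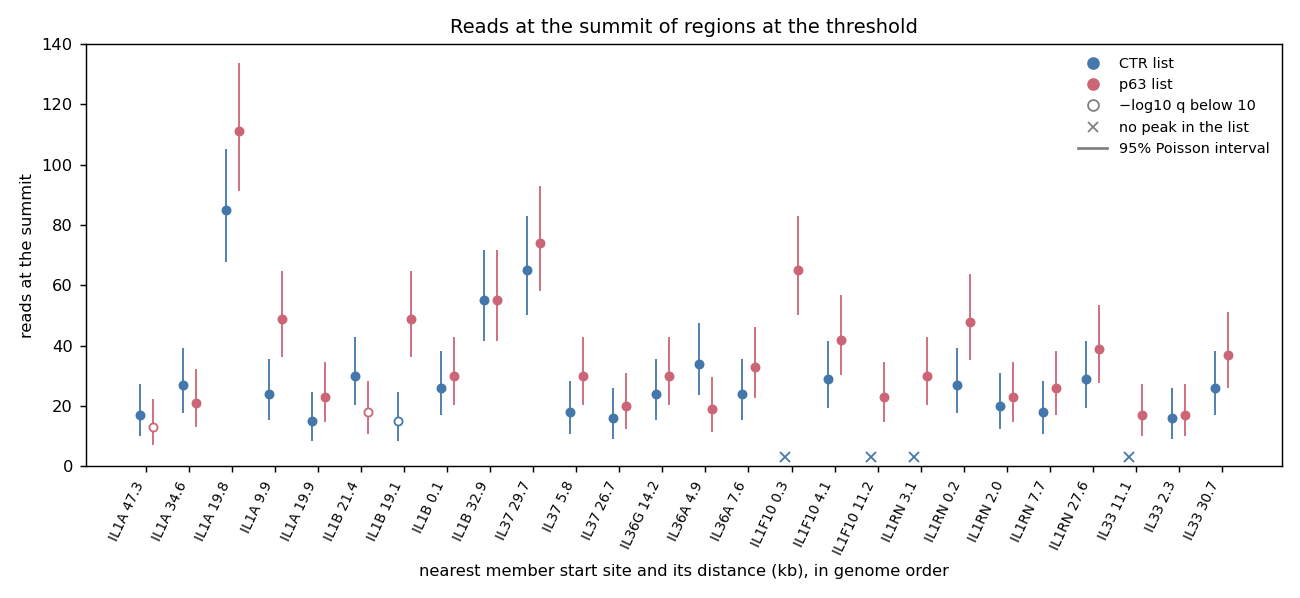
Reads at the summit of 26 of the 27 regions open in at least one list, in genome order and named by the nearest member TSS and its distance in kb; points are the pileups in the CTR and p63 lists, bars their 95% Poisson intervals, open points lie below the threshold and crosses mark lists without a peak. Among shared regions the intervals of both lists are apart only 9.9 kb from IL1A, and they are also apart, for a p63-only region, 19.1 kb from an alternative IL1B TSS.

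The antagonist IL36RN (ENSG00000136695.15, chr2:113058638-113065382, plus strand) had no open region within 3 kb of a TSS. A weak CTR peak with 8 reads and a −log10 q of 3.39 lay 1156 bp from a start. IL1F10 (ENSG00000136697.13, chr2:113067970-113075843, plus strand), which encodes IL-38, had an open promoter in the p63 list alone. The region at chr2:113072304-113072945 had its summit 321 bp downstream of an alternative TSS, in the 5′ UTR of that transcript, with 65 reads (50.2 to 82.8), a 10.5-fold enrichment and a −log10 q of 44, and no CTR peak overlapped it at any threshold. It had the highest −log10 q of the 6 p63-only regions and none of the motifs searched lay within 100 bp of its summit. Around the main start of IL1F10 only weak peaks were found. A CTR peak 2380 bp upstream had 9 reads and a −log10 q of 2.17, and a region 1100 bp downstream had 13 reads in CTR and 17 reads in p63, with −log10 q of 5.13 and 3.38. The 250 bp before the alternative start (chr2:113072068-113072317, plus strand, RefSeq promoter table, GRCh38.p14) overlap the edge of the p63-only region and hold an NF-kB motif, in capitals.
IL1F10 alternative promoter: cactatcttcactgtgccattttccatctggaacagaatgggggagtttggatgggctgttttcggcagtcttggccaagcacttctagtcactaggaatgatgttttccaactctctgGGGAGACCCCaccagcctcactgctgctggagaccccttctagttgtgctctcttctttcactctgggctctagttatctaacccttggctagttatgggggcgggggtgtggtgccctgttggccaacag

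A further p63-only region with no CTR peak lay 11.2 kb from a start of IL1F10, in the interval towards IL1RN (chr2:113085446-113085842) and 1105 bp from the TSS of RNU6-1180P, a small RNA pseudogene. It had 23 reads (14.6 to 34.5), a 8.92-fold enrichment and a −log10 q of 16.6, and it held a p63 site with 3 mismatches at chr2:113085742-113085761, 51 bp from the summit. The shared region between these p63-only regions, 4.1 kb from an IL1F10 start (chr2:113078054-113079091), had 29 reads (19.4 to 41.6) in CTR and 42 reads (30.3 to 56.8) in p63. Hence 3 of the 5 p63 open regions assigned to IL1F10 had no CTR peak, against 12% of all p63 open regions. The third of them was a region within IL1RN.

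IL1RN (ENSG00000136689.20, chr2:113099315-113134016, plus strand), which encodes the receptor antagonist that blocks IL-1α and IL-1β, had the most open regions of all members in the p63 list, with 8 against 5 in the CTR list. The 3 p63-only regions among these 8 were those already counted for IL1F10. In the p63 list 74.8% of protein-coding genes had fewer open regions than IL1RN. The gene also had 13 annotated TSSs, the most of all members. Its promoter region at chr2:113117428-113117966, with the summit 179 bp upstream of a TSS, had 27 reads (17.8 to 39.3) in CTR and 48 reads (35.4 to 63.6) in p63. The fold enrichments were nearly equal, with 9.68 and 9.83, at a local background of 1.89 reads in CTR and 3.99 reads in p63. It had an AP-1 motif 37 bp from the summit and was the shared region with the highest −log10 q (32.2 in the p63 list) for IL1F10. A second region within 3 kb of an IL1RN TSS (chr2:113125316-113125794) had 20 reads (12.2 to 30.9) in CTR and 23 reads (14.6 to 34.5) in p63. Next to it the p63 list alone held a weak peak with 16 reads and a −log10 q of 8.60, and near the 3′ end of the gene another one with 10 reads and a −log10 q of 3.96.

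Upstream of the IL1RN promoter a pair of peaks was found in the p63 list alone, both in an intron of the longer IL1RN transcripts and separated by 614 bp. The p63-only region at chr2:113114707-113115049, 3.1 kb upstream of a TSS, had 30 reads (20.2 to 42.8), a 6.17-fold enrichment and a −log10 q of 14.4. Its best match to the p63 site had 4 mismatches and was not counted as a site. The neighbouring peak at chr2:113113861-113114092 stayed below the threshold, with 20 reads (12.2 to 30.9), a 4.21-fold enrichment and a −log10 q of 6.62. It nevertheless held the closest match to the p63 site of all member regions, with 1 mismatch, at chr2:113114040-113114059 and 61 bp from the summit. The local background of both was 3.99 to 4.03 reads. At the far end of the IL1RN window, the p63 list had a weak peak with a p63 site of 3 mismatches in PSD4 (chr2:113164597-113165044), with 9 reads (4.12 to 17.1), a 4.25-fold enrichment and a −log10 q of 3.81. The PSD4 promoter (chr2:113158221-113158715), which had the highest −log10 q of the shared regions of IL1RN, had 29 reads (19.4 to 41.6) in CTR and 39 reads (27.7 to 53.3) in p63, with fold enrichments of 9.65 and 12.6.

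IL33 (ENSG00000137033.12, chr9:6215786-6257983, plus strand), the alarmin that signals through the receptor encoded by IL1RL1, had 2 open regions in CTR and 3 in p63. The p63-only region, in an intron 11.1 kb upstream of a downstream TSS (chr9:6230239-6230742), had 17 reads (9.90 to 27.2), a 7.82-fold enrichment and a −log10 q of 11.9, and no CTR peak. It was the p63-only region nearest to the threshold. A shared intronic region 2.3 kb from an internal TSS (chr9:6243772-6244046) had 16 reads (9.15 to 26.0) in CTR and 17 reads (9.90 to 27.2) in p63, and carried a pair of AP-1 motifs. The region 30.7 kb downstream of a start (chr9:6272186-6272570) was the strongest at IL33, with 26 reads (17.0 to 38.1) in CTR and 37 reads (26.1 to 51.0) in p63, and fold enrichments of 10.5 and 13.4. Close to the first TSS only a weak CTR peak was called, at 2492 bp, with 8 reads and a −log10 q of 3.39.

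**Figure D3:**
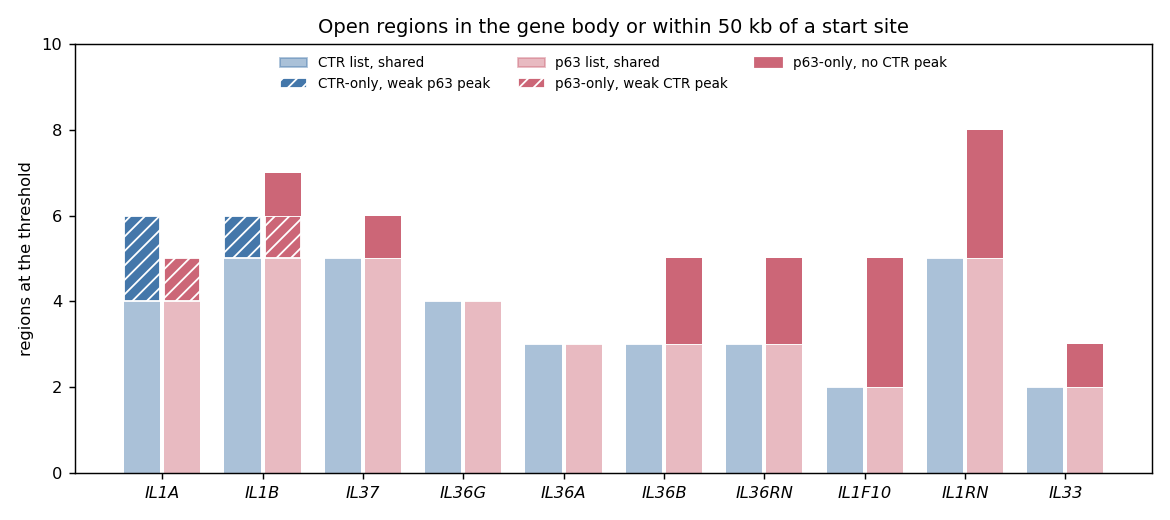
Number of open regions in the gene body or within 50 kb of a TSS of each member gene, CTR list in blue and p63 list in red; pale parts are shared, hatched parts have a weak peak in the other list and dark parts have none. IL1RN reached 8 regions in the p63 list, IL36G and IL36A had shared regions only, and regions near neighbouring genes are counted for each of them.

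To put these counts into context, the same rule was applied to 20033 protein-coding genes. The 10 members had a median of 3.5 open regions in CTR and 5 in p63, against 4 and 5 over all genes. At least 1 p63-only region was found at 8 of 10 members and at 58.2% of all genes, and at least 1 p63-only region without any CTR peak at 7 of 10 members and at 37.1% of all genes. CTR-only regions were found at 2 of 10 members and at 41.9% of all genes. Since 9 of the members share 1 stretch of 360 kb and their windows overlap, these counts are not independent of each other. Promoters of the family were mostly closed. An open region within 3 kb of a TSS was found for IL1B, IL1RN and IL33 in both lists and for IL1F10 in the p63 list alone, that is for 3 of 10 members in CTR and 4 of 10 in p63, compared with 69.4% and 70.8% of all genes. For IL33 it was the intronic region 2.3 kb from an internal TSS, with only a weak CTR peak near the first TSS.

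The regions open in both lists were then compared by their height. Of the 19 shared regions, 16 had a higher fold enrichment in the p63 list (57.7% of all 47412 shared regions were higher in p63). The median log2 ratio was 0.27, with a range from −0.81 to 0.81, while the median of all shared regions was 0.05. Exceptions were the region 4.9 kb from IL36A, the one 29.7 kb upstream of IL37 and an intron of CKAP2L. The pileups gave the same direction. They were higher in p63 in 16 of 19 regions and equal in 1, with a median log2 ratio of 0.39 (−0.84 to 1.03), while 49.8% of all shared regions had a higher pileup in p63 and their median was 0. The local background was also higher in p63 at 13 of the 19 regions. The matching share over all shared regions was not counted, and the commonest background of the whole lists was 1.18 reads in CTR and 1.13 in p63. The counting intervals of the pileups overlapped for all shared regions but the one 9.9 kb upstream of IL1A, and regions of 1 cluster are neighbours rather than replicates.

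**Figure D4:**
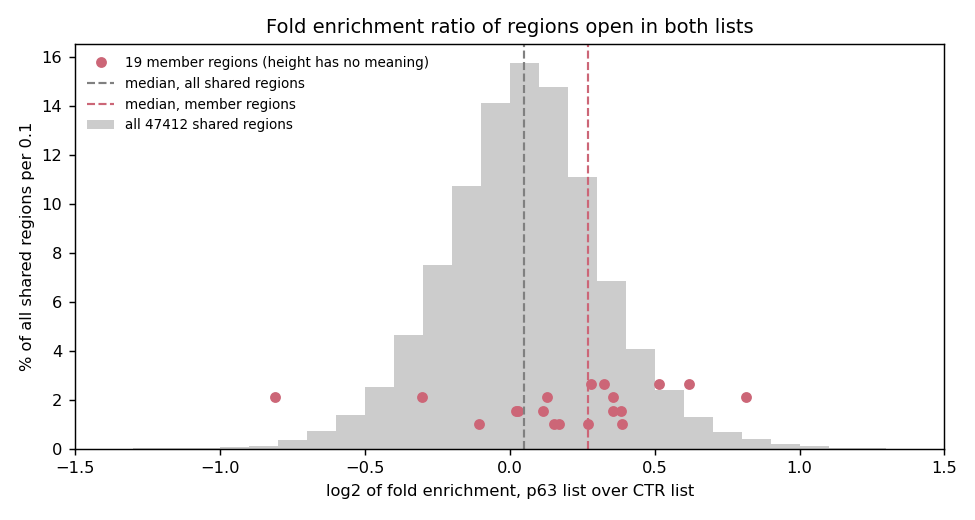
Distribution of the log2 ratio of fold enrichment, p63 list over CTR list, of all 47412 shared regions (grey bars, percent per bin of 0.1) with the 19 member regions (points, whose height has no meaning); dashed lines are the medians, 0.05 for all and 0.27 for the members. Most member points lie to the right of the grey median, and the lowest and the highest are the regions 4.9 kb from IL36A and 9.9 kb from IL1A.

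Sequence motifs were searched on both strands within 100 bp of each summit. A p63 site, 20 bp long, whose invariant C and G bases had to match and which could differ from the consensus at up to 3 other positions, was found in 2 of the 25 p63 open regions (3.78% of all p63 open regions) and in none of the 21 CTR open regions (0.932%). Both sites lay in p63-only regions, that is in 2 of 6, against 11.4% of all p63-only regions, and 1 of the 5 regions without a CTR peak had one, against 18.8%. The AP-1 motif TGACTCA or TGAGTCA, which is bound by Jun and Fos proteins, was present in 8 of 25 p63 open regions (25.4% of all) and in 10 of 21 CTR open regions (26.9%). It was present in 0 of the 6 p63-only regions, against 22% of all p63-only regions. The NF-kB motif was present in 1 of 25 p63 open regions (3.58% of all) and 1 of 21 CTR open regions (3.41%), which are the opposed pair between IL1A and IL1B. The motif of CTCF, an organiser of chromatin loops, was present in 4 of 25 p63 open regions (8.40%) and 4 of 21 CTR open regions (9.78%). KLF motifs (GGGCGGGGC, GGGCGTGGC, GGGTGGGGC and GGGTGTGGC) were found in none of the member open regions, against 7.14% of all p63 and 7.40% of all CTR open regions. With so few regions, shares of this kind carry wide counting errors, and a match does not show that a factor was bound.

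The RefSeq promoter table listed 16 starts for the members but none for IL36B, whose promoter was therefore not searched in this way. Within the 250 bp before the start, a p63 site was found at 0 of 16 (0.914% of 35116 promoters). AP-1 motifs were found at 3 of 16 (4.20%), namely a pair of overlapping IL1A starts, which share 1 of the motifs, and the IL1RN start described above, and NF-kB motifs at 1 of 16 (5.21%), which is the alternative IL1F10 start. KLF motifs were found at 1 of 16 (17.6%) and CTCF motifs at 0 of 16 (3.04%).

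Finally, 28 other genes of the interleukin-1 pathway were examined: receptors, the related ligand IL18 and its binding protein, the inflammasome that activates caspase-1, adaptors and kinases, and NF-kB with its inhibitors. Their distinct open regions numbered 124 in CTR, of which 13 were CTR-only (10.5%, 6.23 to 17.1%, against 16.5% of the whole list), and 144 in p63, of which 33 were p63-only (22.9%, 16.8 to 30.4%, against 23.9%). Of the p63 regions, 13 (9.03%, against 12% of the whole list) had no CTR peak, and of the CTR regions, 4 (3.23%, against 3.29%) had no p63 peak. At least 1 p63-only region was found at 19 of 28 genes (58.2% of all genes), and at least 1 CTR-only region at 11 of 28 (41.9% of all genes). By group, p63-only regions were found at 6 of 8 receptors, 5 of 10 adaptors and kinases and 2 of 4 inflammasome genes. The others were 4 of 4 NF-kB factors and inhibitors and 2 of 2 for IL18 and its binding protein. Neighbouring receptor genes such as IL1R1 and IL1RL2 shared regions, so these counts are not independent. An open promoter was found for 23 of 28 genes in CTR and 25 of 28 in p63 (69.4% and 70.8% of all genes). Of the regions absent from the other list, those with the highest −log10 q are named by the gene whose window holds them. The ubiquitin ligase gene TRAF6 had one with 23 reads and a −log10 q of 19.2 in the p63 list (chr11:36475194-36475537). IL18BP, which encodes a soluble inhibitor of IL-18, had one with 35 reads and a −log10 q of 17.6 (chr11:72028846-72029109), and PYCARD, the inflammasome adaptor, one with 21 reads and a −log10 q of 16.9 (chr16:31248389-31248738). The decoy receptor gene IL1R2 had one with 25 reads and a −log10 q of 15.9 (chr2:101962510-101963089), and NFKBIA, which encodes the inhibitor of NF-kB, one with 19 reads and a −log10 q of 15.4 (chr14:35446606-35446947). The remaining one, at the kinase gene IRAK1, belonged to the CTR list, with 22 reads and a −log10 q of 13.6 (chrX:154046191-154046763). None of these 6 regions held a p63 site near its summit. Of all 13 p63 regions of pathway genes without a CTR peak, 3 held one, against 18.8% of such regions in the whole p63 list. A pair of these 3 lay at NFKB1 and one at IRAK2, all with a lower −log10 q than the 6 regions named.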

How the data were processed

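ATAC-seq reads of BJ fibroblasts were mapped by the authors to hg38 with Bowtie2 (v2.3.4.3), and peaks were called with MACS2, whose version and options, like the removal of duplicates and the shift of reads, are not given in the sources used here. The authors deposited 1 narrowPeak list per group, made from both replicates. Each deposited row gives the fold enrichment (a ratio), the −log10 p, the −log10 q and the summit position in bp from the start of the peak. Whether the authors scaled the reads between lists is not given in the sources used here, and the depth of each sample is unknown.

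Peaks on chromosomes 1 to 22, X and Y were kept (2558 CTR and 2808 p63 peaks lay elsewhere and were dropped). Lists were intersected with bedtools 2.31.1 (overlap of at least 1 bp). GENCODE release 44 gave gene bodies and TSSs, and coordinates are 1-based. Pileup and background were solved from the fold enrichment and −log10 p under the Poisson model of the peak caller; 99.9% of the CTR and 100% of the p63 peaks tried were recovered within 0.01. For shared regions, the overlapping CTR peak with the highest −log10 q was used. Sequences were read with pysam 0.24.0. The scripts were tested on simulated data. Wilson and Poisson intervals cover counting error only. With 1 list per group no test was made.

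All 10 members were named. Given in full were list-only regions, per gene the shared region with the highest −log10 q in the p63 list, regions within 3 kb of a member TSS, regions with a p63 site and, of the pathway genes, at most 6 regions absent from the other list, by −log10 q. Of the list-only regions, 1 p63-only region enters the counts but is not reported here by itself. A few further shared regions, and NFKB1 and IRAK2, were chosen after their values were seen. The members, gene lists and motifs were chosen with earlier results of these data known. Alternatives were other thresholds, overlap rules, windows, TSS sets and mismatch limits, equal numbers of top-ranked peaks, and, added after seeing the data, pileups in place of fold enrichments.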

Additional observations from a re-analysis of the deposited data

How the results depend on the processing

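No paired analysis was possible because the authors joined both replicates of a group into 1 list; for the same reason no replicate could be left out. Without a threshold, 33 CTR and 46 p63 regions were counted. Of these, 8 were CTR-only (24.2%, against 21.4% of all CTR peaks) and 21 were p63-only (45.7%, against 27.1% of all p63 peaks). At a stricter −log10 q of 20 the lists held 9 CTR and 16 p63 regions, the p63-only ones numbering 10 (62.5%, against 24.6% of all) and the CTR-only share being 33.3% (15.4% of all). Most of these 10 p63-only regions overlapped a CTR peak that passed the threshold of 10. The CTR-only count was 4 with an overlap of 50% of both peaks (19.0%, against 20.4% of all CTR regions) and 1 with a window of 25 kb. It was 0 (0%, against 3.29% of all CTR regions) when a p63 peak at any threshold counted as present. The count of regions with a p63 site was 1 with at most 2 mismatches. The median log2 ratio of shared regions lay between 0.15 (no threshold) and 0.39 (pileups) under the alternatives tried, with 0.17 for the 50% overlap, the window of 100 kb and the gene start as the only TSS, against 0.05 over all shared regions with the 50% overlap, and the remaining counts and shares moved by no more than 1.5 times or stayed within their counting intervals. The depth limits single regions: with a median of 34 reads at the summit, only large differences exceed counting error, and the replicate error cannot be seen.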
